A study of Mus musculus with 3 samples.

Results

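The 10 genes described here, measured in NIH3T3 mouse fibroblasts, belong to families known for control of the G1 phase: the D cyclin genes *Ccnd1*, *Ccnd2* and *Ccnd3*, the CDK inhibitor genes *Cdkn1a*, *Cdkn1b*, *Cdkn1c*, *Cdkn2a*, *Cdkn2b* and *Cdkn2c*, and *Myc*. They were chosen by symbol, and each had 1 row among the 15554 rows of the deposited table. NIH3T3 is an immortal mouse line derived from embryonic fibroblasts, and the treatment protocol, given alike for all 3 samples, names serum-free medium. The groups were unstimulated cells (CTRL), cells given GDF15 protein at 100 ng/mL and cells given TGF-β protein at 4 ng/mL, with 24 h of stimulation. RNA was pooled within each treatment and 1 library per treatment was sequenced, so differences between libraries could not be set against replicates or tested. Of the 10 genes, 7 were expressed at 25.5 FPKM or more in every library, and 3 (*Cdkn1c*, *Cdkn2a* and *Cdkn2b*) were at or near 0 in every library. Over 2-fold differences from CTRL were found for 0 of the 10 genes with GDF15, against 0.289% of all rows, and for 0 of the 10 with TGF-β, against 0.913%.

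D cyclins bind and activate the kinases CDK4 and CDK6, which phosphorylate the retinoblastoma protein and release E2F transcription factors for entry into S phase. Inhibitors of the INK4 family (p16Ink4a from *Cdkn2a*, p15 from *Cdkn2b*, p18 from *Cdkn2c*) bind CDK4 and CDK6 directly, and those of the CIP/KIP family (p21 from *Cdkn1a*, p27 from *Cdkn1b*, p57 from *Cdkn1c*) bind cyclin and kinase together. *Myc* encodes a transcription factor that drives growth and cell cycle entry. In epithelial cells TGF-β is known for arresting the cycle with induction of *Cdkn2b* and *Cdkn1a* and repression of *Myc*, whereas fibroblasts can proliferate in response to it.

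The deposited values are FPKM, fragments counted per kilobase of transcript and scaled to library size, so that levels can be compared between genes. A change is the difference of log2(FPKM + 1) between a stimulated library and CTRL. It was set against 2 measures of error, neither of which replaces a replicate. The first is the local spread, a robust standard deviation of the changes of 500 genes with the most similar expression, taken around their median (the local median). The second is the counting standard error (SE) from estimated fragment numbers, which covers counting error only. Depth, estimated from the steps of low FPKM values, was 17.1 M fragments for CTRL, 20.0 M for GDF15 and 16.5 M for TGF-β. At this depth the 7 expressed genes had an estimated 1204 to 8544 fragments per library. Fibroblast markers fitted the label, with 9 of 10 at a mean of at least 1 FPKM (the exception was *Fap*) and summed levels of 11954 to 13093 FPKM. Of 21 markers of epithelial, endothelial, immune, adipocyte and muscle cells, 20 lay below 1 FPKM, and *Cd68* lay between 1.14 and 1.67.

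**Figure D1:**
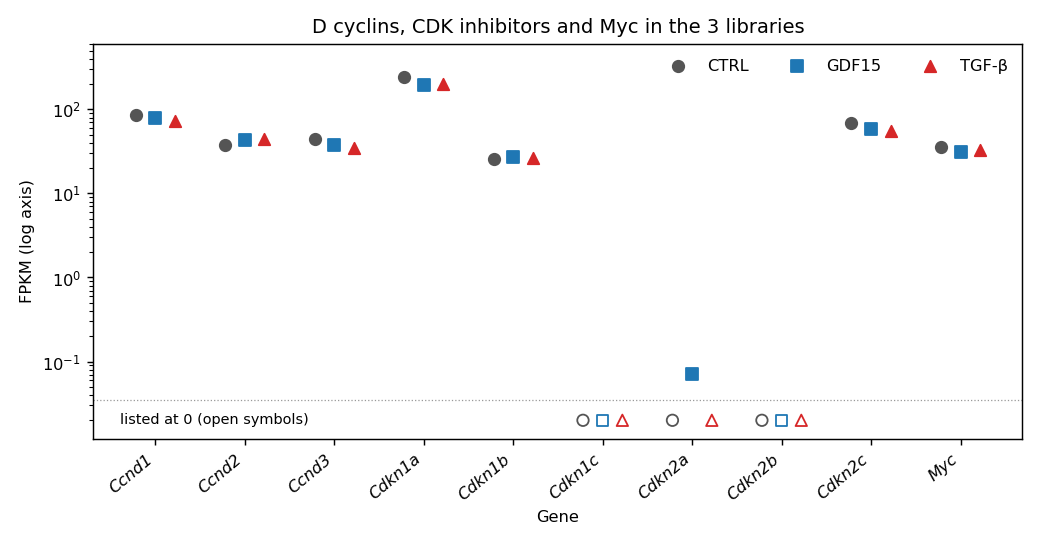
FPKM (log axis) of the 10 genes in the CTRL, GDF15 and TGF-β libraries, 1 point per library, with values listed at 0 drawn as open symbols below the dotted line. *Cdkn1a* is the highest in each library, 7 genes lie between 25.5 and 240.03 FPKM, and *Cdkn1c*, *Cdkn2a* and *Cdkn2b* are at or near 0.

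*Ccnd1*, which encodes cyclin D1, the D cyclin most tied to growth factor signalling, was at 85.8 FPKM without stimulation, 80.0 with GDF15 and 73.7 with TGF-β. Its level was highest without stimulation and lowest with TGF-β. Its change was -0.10 with GDF15 and -0.22 with TGF-β, each with a counting SE of 0.03. Both lay within the local spread (0.23 for both stimuli) around local medians of -0.08 and -0.06, from which they differed by -0.02 and -0.15. The gene lies on the minus strand of chromosome 7 (GENCODE M21, GRCm38, 144929931 to 144939925). Its exons share 1100 bases with *Oraov1* on the opposite strand, which was at 11.6, 9.45 and 10.0 FPKM in CTRL, GDF15 and TGF-β, and whether strand was used in counting is not given in the sources used here.

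*Ccnd2* (cyclin D2, chromosome 6, 127125162 to 127152193) went the other way. It was at 38.0 FPKM without stimulation, 43.5 with GDF15 and 44.2 with TGF-β, so both stimulated libraries were above CTRL and close to each other. Its change was 0.19 with GDF15 and 0.21 with TGF-β, the highest of the 10 genes for either stimulus. Less the local median, these are 1.14 and 1.27 local spreads, and counting SE was 0.03 for each. *Ccnd2* also has the longest coding transcript of the 10 genes (6330 bases), and in these libraries changes go with transcript length. Among the 500 expressed genes nearest in length the median was 0.11 with GDF15 and 0.03 with TGF-β, and with these removed *Ccnd2* was at 0.08 and 0.19.

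*Ccnd3* (cyclin D3, chromosome 17, 47505051 to 47599691) was at 45.0 FPKM without stimulation, 38.1 with GDF15 and 34.6 with TGF-β. Like *Ccnd1* it was highest in CTRL and lowest in TGF-β. Its change of -0.37 by TGF-β was the lowest of the 10 genes and lay -1.32 local spreads from the local median. With GDF15 the change was -0.23, or -0.93 local spreads, and -0.15 with the length trend removed. Its exons share 361 bases with *Bysl* on the opposite strand, at 4.61 to 5.86 FPKM. Exon bases are also shared with opposite-strand genes that have no row by *Ccnd2* (372 and 368 bases), *Cdkn1a* (273) and *Cdkn1c* (625).

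The share of each gene among the D cyclins differed between libraries. The 3 genes together made 168.8 FPKM without stimulation, 161.6 with GDF15 and 152.5 with TGF-β. *Ccnd1* held 50.9% of the sum without stimulation, 49.5% with GDF15 and 48.3% with TGF-β. *Ccnd2* held 22.5%, 26.9% and 29.0% in the same order, and *Ccnd3* held 26.7%, 23.6% and 22.7%. *Ccnd3* thus ranked above *Ccnd2* in CTRL and below it in both stimulated libraries. With the length trend removed, the order in GDF15 was lost, *Ccnd3* then being 0.01 above *Ccnd2* on the log2(FPKM + 1) scale, whereas in TGF-β the difference was -0.21. The ratio of *Ccnd2* to *Ccnd1*, which no scaling of a library can move, was 0.442 without stimulation, 0.543 with GDF15 and 0.600 with TGF-β. Transcript length differs between these genes. On the log2(FPKM + 1) scale the change of *Ccnd2* exceeded that of *Ccnd1* by 0.29 with GDF15 and 0.43 with TGF-β, and by 0.18 and 0.36 with the length trend removed.

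*Cdkn1a*, the gene of p21 and a classical target of p53, was the most abundant of the 10 genes, at 240.03 FPKM without stimulation, 195 with GDF15 and 199 with TGF-β. It exceeded 98.8% of all rows in CTRL and 98.6% in each stimulated library. The unstimulated library was the highest, and the stimulated libraries were close to each other. Changes were -0.30 with GDF15 and -0.27 with TGF-β, with counting SE of 0.02 each. Genes of this abundance scattered more, with local spreads of 0.31 and 0.30 around local medians of -0.15 and -0.12, so that both changes lay within 1 local spread, at -0.47 and -0.52. The length trend removed, they were -0.21 and -0.15. *Cdkn1a* made up 71.8% of the summed FPKM of the 6 inhibitor genes without stimulation, 69.2% with GDF15 and 70.9% with TGF-β. Its FPKM was 1.20 times that of *Cdk4* in CTRL, 1.09 times in GDF15 and 1.23 times in TGF-β.

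*Cdkn1b* (p27, chromosome 6, 134920401 to 134925513), an inhibitor known to accumulate in quiescent cells, was at 25.5 FPKM without stimulation, 27.4 with GDF15 and 26.6 with TGF-β. The 3 libraries were nearly level, with changes of 0.10 and 0.06 and counting SE of 0.04 and 0.05. Both changes were positive and lay 0.67 and 0.71 local spreads above the local median, and were 0.07 and 0.11 with the length trend removed. The ratio of *Cdkn1a* to *Cdkn1b* was 9.41 without stimulation, 7.12 with GDF15 and 7.47 with TGF-β. *Cdkn1c* (p57, chromosome 7, 143458339 to 143461050), an imprinted gene, was listed at 0 in all 3 libraries.

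*Cdkn2c* (p18, chromosome 4, 109660876 to 109667189) was the only INK4 gene among the 10 with an appreciable level. Its FPKM was 68.9 without stimulation, 59.2 with GDF15 and 55.0 with TGF-β. As for *Ccnd1* and *Ccnd3*, CTRL was the highest and TGF-β the lowest. Its change was -0.22 with GDF15 and -0.32 with TGF-β, or -0.65 and -1.21 local spreads from the local median, with counting SE of 0.04 each. The remaining INK4 gene, *Cdkn2d* (p19Ink4d), was at 12.5, 9.71 and 9.40 FPKM, with changes of -0.33 and -0.37, or -0.17 and -0.23 with the length trend removed.

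*Cdkn2a* and *Cdkn2b* lie side by side on chromosome 4, at 89274471 to 89294653 and 89306299 to 89311039 on the minus strand. *Cdkn2a* encodes p16Ink4a and p19Arf from separate first exons spliced to shared exons, and p19Arf stabilises p53 by holding MDM2. NIH3T3 is known as a line that has lost *Cdkn2a*. Here *Cdkn2a* was listed at 0 in CTRL, at 0.0709 FPKM in GDF15 and at 0 in TGF-β. The GDF15 value corresponds to an estimated 1.27 fragments, below the 3 fragments taken as the floor, and no fold is given. A value for the whole gene does not separate p16Ink4a from p19Arf transcripts. *Cdkn2b* was listed at 0 in all 3 libraries, the TGF-β library included. A count of 0 allows a level of up to 0.196 FPKM in CTRL and 0.203 in TGF-β for *Cdkn2a*, and 3 fragments would be 0.168 FPKM in GDF15. For *Cdkn2b* the limits are 0.126, 0.108 and 0.131 FPKM, and for *Cdkn1c* 0.0922, 0.0791 and 0.0958. These limits rest on the estimated depth and on the longest coding transcript, and cover counting error only. Of 78 ribosomal protein genes, which every cell uses, 77 were above 0 in all libraries, the exception being the paralog *Rpl10l*. That check covers this family only, and whether an expressed gene can be listed at or near 0 was not tested. RNA levels alone do not tell a deleted gene from a silent one, and the 2 cannot be told apart here.

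The reference sequences before the annotated starts of *Cdkn2a* and *Cdkn2b*, at or near 0, are shown together with those of *Cdkn1a*, the most abundant of the 10. They come from the reference genome, and whether the *Cdkn2a* and *Cdkn2b* bases are present in this line is not shown by these data. Each is the window of 250 bases before a RefSeq start (GRCm38.p6), without bases that GENCODE places in an exon of the gene, 5′ to 3′ on the strand of the gene. Capitals mark motif matches, which are a GC box in the p19Arf run, a pair of GC boxes in the downstream *Cdkn1a* run, a CRE in the *Cdkn2b* run, and a p53 core pair at the upstream *Cdkn1a* start. The windows are chr4:89294654-89294869 (p19Arf) and chr4:89282193-89282442 (p16Ink4a) for *Cdkn2a* and chr4:89311040-89311282 for *Cdkn2b*, all on the minus strand. Those of *Cdkn1a*, on the plus strand, are chr17:29090729-29090975 (upstream start) and chr17:29093519-29093768 (downstream start). The p16Ink4a and downstream *Cdkn1a* runs lie inside their genes as annotated.
Cdkn2a p19Arf: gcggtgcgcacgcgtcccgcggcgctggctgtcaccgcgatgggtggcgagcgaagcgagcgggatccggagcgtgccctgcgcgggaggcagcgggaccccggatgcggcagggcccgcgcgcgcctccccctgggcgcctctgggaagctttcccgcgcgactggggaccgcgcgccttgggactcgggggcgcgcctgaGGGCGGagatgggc
Cdkn2a p16Ink4a: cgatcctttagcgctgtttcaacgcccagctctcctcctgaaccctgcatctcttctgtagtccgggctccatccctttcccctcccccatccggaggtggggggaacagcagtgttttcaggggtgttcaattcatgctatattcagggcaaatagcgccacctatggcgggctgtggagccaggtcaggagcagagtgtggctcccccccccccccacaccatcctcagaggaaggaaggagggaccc
Cdkn2b: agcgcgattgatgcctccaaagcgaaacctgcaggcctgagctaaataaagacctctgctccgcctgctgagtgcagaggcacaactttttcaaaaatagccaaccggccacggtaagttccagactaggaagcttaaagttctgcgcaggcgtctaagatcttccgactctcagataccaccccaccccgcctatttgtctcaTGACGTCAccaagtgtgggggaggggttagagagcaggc
Cdkn1a upstream: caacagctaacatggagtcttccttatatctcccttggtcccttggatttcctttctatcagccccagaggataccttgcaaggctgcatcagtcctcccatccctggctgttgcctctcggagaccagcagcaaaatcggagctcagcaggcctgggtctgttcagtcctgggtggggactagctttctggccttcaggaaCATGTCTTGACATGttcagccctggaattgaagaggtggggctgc
Cdkn1a downstream: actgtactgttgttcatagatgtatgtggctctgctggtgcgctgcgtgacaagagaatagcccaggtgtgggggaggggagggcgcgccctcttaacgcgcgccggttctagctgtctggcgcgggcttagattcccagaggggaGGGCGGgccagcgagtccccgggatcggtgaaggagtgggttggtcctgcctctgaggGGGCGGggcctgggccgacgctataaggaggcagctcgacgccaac

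Promoter entries were matched for 6 of the 10 genes, with 10 starts in all, and 7 motifs were searched on both strands. The GC box (GGGCGG), a binding site of Sp1, was present in 32.7% of the 32851 RefSeq promoter windows of this length. It was present in 6 of the 10 windows. These were those of both *Ccnd3* starts, *Cdkn1b*, 1 *Cdkn2c* start, the p19Arf start of *Cdkn2a* and the downstream start of *Cdkn1a*. GENCODE places all 250 bases of that *Cdkn2c* window in exons of the gene. In the reference the GC box lay at the p19Arf start (ending 43 and 9 bases before the start, the latter past the end of the printed run). It also lay at the downstream start of *Cdkn1a* (99 and 41 bases before). The CRE (TGACGTCA), present in 1.55% of windows, ended 39 bases before the start of *Cdkn2b*. The p53 core pair (CATGNNNNNNCATG), present in 0.490% of windows, ended 35 bases before the upstream start of *Cdkn1a*. The E box (CACGTG), the TATA box (TATAAA), the E2F site (TTTCGCGC or TTTGGCGC) and the palindromic Smad box (GTCTAGAC) were found in 0 of the 10 windows, which says only that these letters are not there. They were present in 6.02%, 12.4%, 0.654% and 0.167% of all windows. Other forms of the E2F site were not searched, among them TTTCCCGC, which is present in the printed p19Arf run. The share of G and C was 78.4% before p19Arf, 60.0% before p16Ink4a and 53.6% before *Cdkn2b*, against a median of 52.4% over all windows.

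The nearest table row on the other side of *Cdkn2a* from *Cdkn2b* was highly expressed. *Mtap*, which encodes an enzyme of methionine salvage and ends 93.4 kb from *Cdkn2a*, was at 173.9 FPKM without stimulation, 162 with GDF15 and 156 with TGF-β, above 98.3% of rows in CTRL. Next on that side among genes with at least 1 FPKM came *Klhl9*, a ubiquitin ligase adaptor 552 kb away, at 26.3, 32.6 and 28.7 FPKM. Beyond *Cdkn2b*, *Dmrta1*, 385 kb away, was listed at 0, 0 and 0.0434 FPKM, and *Elavl2*, a neuronal RNA-binding protein gene 1956 kb away, was at 0.521, 0.537 and 0.707. Of 53 protein coding genes annotated within 3 Mb of *Cdkn2a*, 27 were matched to a row, 22 on the side of *Mtap* and 4 on the side of *Cdkn2b*. Of the 27 rows, 7 had a mean of at least 1 FPKM, all on the side of *Mtap*. The other 5, besides *Mtap* and *Klhl9*, were *Rraga*, *Plin2*, *Dennd4c*, *Rps6* and *Mllt3*, at mean levels of 14.6 to 366 FPKM. The type I interferon genes on both sides of *Klhl9* gave 12 rows, of which 7 were at 0 in all libraries and the highest single value was 0.122 FPKM. *Elavl2* and the remaining matched gene on the side of *Cdkn2b*, *Izumo3* (0 in all libraries), are known mainly from neurons and germ cells. Low RNA there does not tell whether the DNA is present.

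**Figure D2:**
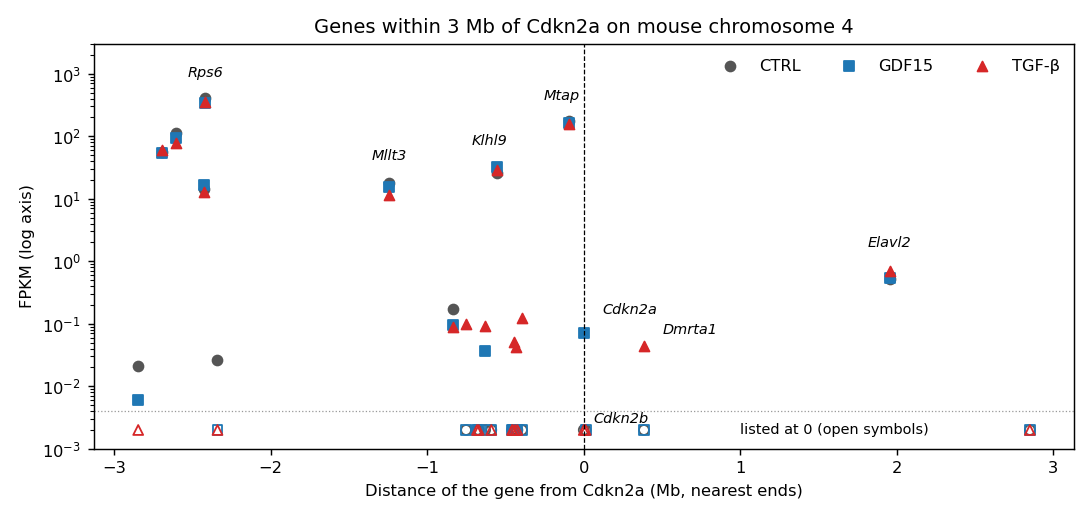
FPKM (log axis) of the 27 table rows within 3 Mb of *Cdkn2a*, by distance of the nearest gene ends, in the CTRL, GDF15 and TGF-β libraries, with values listed at 0 drawn as open symbols below the dotted line. *Mtap*, 93.4 kb from *Cdkn2a*, is between 156 and 174 FPKM, whereas *Cdkn2a* and *Cdkn2b* are at or near 0 and the 4 rows on the right stay below 1 FPKM.

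*Myc* (chromosome 15, 61985391 to 61990374) was at 35.7 FPKM without stimulation, 31.4 with GDF15 and 32.4 with TGF-β, above 87.9% to 89.3% of rows. Both stimulated libraries were slightly below CTRL. Its change was -0.18 with GDF15 and -0.14 with TGF-β, with counting SE of 0.05 and 0.06, or -0.64 and -0.35 local spreads from the local median. With the length trend removed, the changes of *Myc* were -0.11 and -0.03. The paralogs *Mycn* (0, 0.0191 and 0 FPKM) and *Mycl* (0 in all 3 libraries) were at or near 0, so *Myc* was the family member expressed in these cells.

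The counts of 0 over 2-fold are near the shares over all rows and do not set these genes apart. Of the 7 expressed genes, 5 were lower and 2 higher than CTRL by each stimulus, with *Ccnd2* and *Cdkn1b* the higher pair. Over expressed rows, 55.6% were lower with GDF15 and 62.8% with TGF-β, so 5 of 7 is near these shares, and the counts of the other lists are to be read against the same shares. Both comparisons share the CTRL library, so the like counts for both stimuli are no result in themselves. The changes ran from -0.30 to 0.19 by GDF15, with a median of -0.18 over these 7, and from -0.37 to 0.21 by TGF-β, with a median of -0.22. Over all 10 genes the medians were -0.05 and -0.07, and over the 7 with the length trend removed they were -0.11 and -0.15. Over the 9226 rows with a mean of at least 1 FPKM the median was -0.03 with GDF15 and -0.07 with TGF-β. Less the local median, 6 of the 7 lay within 1 local spread by GDF15 (the exception was *Ccnd2*) and 4 of the 7 by TGF-β (the exceptions were *Ccnd2*, *Ccnd3* and *Cdkn2c*). The lowest level reached was 76.9% of CTRL (*Ccnd3* with TGF-β) and the highest was 116% (*Ccnd2* with TGF-β).

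**Figure D3:**
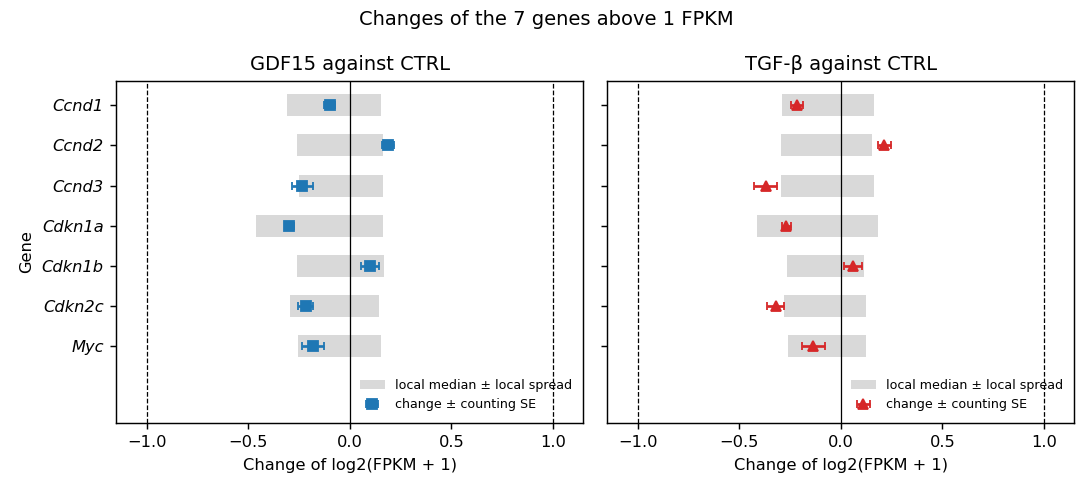
Change of log2(FPKM + 1) against CTRL for the 7 genes above 1 FPKM, with GDF15 on the left and TGF-β on the right. Symbols carry the counting SE, grey bars span the local median ± the local spread, and dashed lines mark 2-fold; the points lie between -0.37 and 0.21, far inside 2-fold, and *Ccnd2* is to the right of its grey bar for both stimuli.

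**Figure D4:**
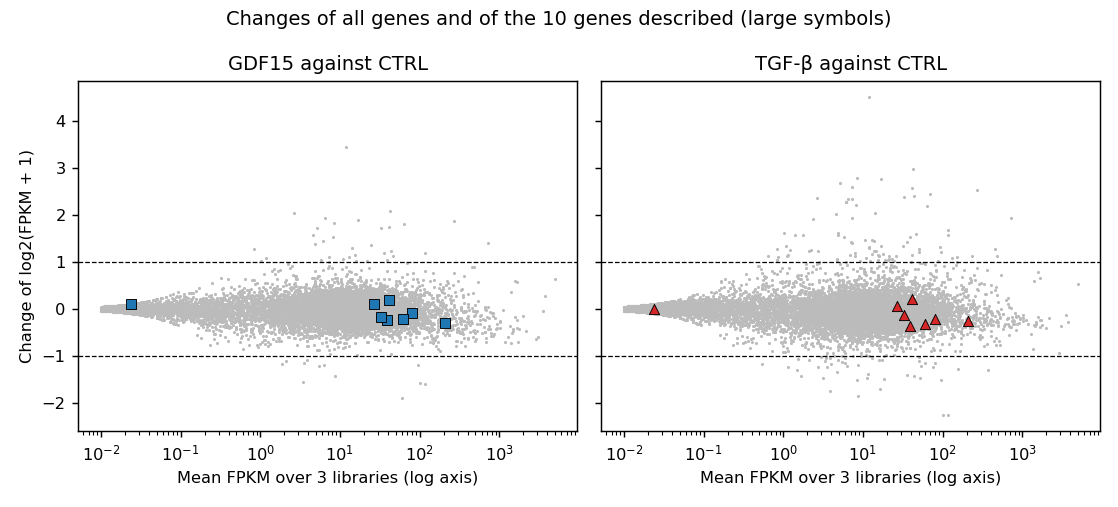
Change of log2(FPKM + 1) against the mean FPKM over the 3 libraries (log axis) for rows with a mean above 0.01 FPKM (grey) and for those of the 10 genes among them (large symbols), by GDF15 on the left and TGF-β on the right. Dashed lines mark 2-fold, which 45 rows passed by GDF15 and 142 by TGF-β; the large symbols lie within the grey cloud.

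The partners of the D cyclins and inhibitors were followed as lists. None of their measured members was over 2-fold by either stimulus. Among 9 genes of G1 kinases and cyclin E, 3 were higher and 6 lower than CTRL by each stimulus, with median changes of -0.07 by GDF15 and -0.06 by TGF-β. *Cdk4* was at 199 FPKM without stimulation, 179 with GDF15 and 162 with TGF-β, about 9.65, 8.62 and 9.58 times the level of *Cdk6* (20.7, 20.8 and 16.9 FPKM). *Cdk2*, the partner of cyclin E, was at 16.0, 13.5 and 15.3 FPKM. *Ccne1*, for cyclin E1, was at 3.29, 4.00 and 4.25 FPKM, with changes of 0.22 and 0.29.

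Of 13 Rb and E2F family genes, 12 were expressed at a mean of at least 1 FPKM, with medians of 0.00 by GDF15 and -0.04 by TGF-β. *Rb1*, the retinoblastoma gene, was at 11.2 FPKM without stimulation, 12.9 with GDF15 and 12.7 with TGF-β. *E2f1*, an activator of S phase genes, was at 22.3, 18.1 and 17.2 FPKM, with changes of -0.29 and -0.36. *Tfdp2*, which encodes a dimerisation partner of E2F, was at 4.19, 4.27 and 3.32. *E2f6* was near 0 (0, 0.0206 and 0.0503 FPKM).

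Among 11 genes for the turnover of D cyclins, p27 and Myc, 6 were higher and 5 lower by each stimulus. *Fbxw7*, which encodes the ligase subunit that marks Myc and cyclin E for degradation, was at 4.29, 5.96 and 5.46 FPKM, with changes of 0.40 and 0.29. *Rnf123*, for a ligase subunit acting on p27, was at 13.9, 10.8 and 11.4 FPKM. Its changes were -0.34 and -0.27, or -0.32 and -0.18 less the local median. The medians of the list were 0.02 and 0.01.

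*Cdkn1a* was lower with both stimuli, but within 1 local spread of the local median. The list of p53 and 19 genes known as its targets or regulators was divided. Of the 19 expressed genes, 10 were higher and 9 lower by GDF15 (median 0.00), and 8 were higher and 11 lower by TGF-β (median -0.04). *Trp53* itself was at 53.9 FPKM without stimulation, 49.3 with GDF15 and 48.3 with TGF-β. *Plk2*, a kinase gene of the list, had the widest change, at 54.8, 93.4 and 96.3 FPKM, or 0.76 and 0.80. *Gadd45a*, a growth arrest gene, was at 61.7, 77.7 and 94.1 FPKM, with changes of 0.33 and 0.60, the former 0.54 with the length trend removed. *Trp53inp1* was at 18.3, 23.9 and 20.4. The endogenous *Gdf15* gene, also on the list, was at 0.121, 0.104 and 0.0636 FPKM, so these cells made little *Gdf15* RNA of their own in any of the libraries.

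In the extended Max network, which holds *Max*, partners of its protein and the related *Mlx* and *Mlxip*, 7 of 9 expressed genes were lower by GDF15 (median -0.19) and 6 of 9 by TGF-β (median -0.14). *Max* was at 18.5, 18.0 and 19.0 FPKM. *Mxd3* was at 6.69 FPKM without stimulation, 4.70 with GDF15 and 3.54 with TGF-β, with changes of -0.43 and -0.76 (-0.24 by GDF15 with the length trend removed), and *Mxd1* at 2.52, 1.72 and 1.80. Of 20 listed Myc targets, 17 were matched (*Nolc1*, *Shmt2* and *Ppat* were not analysed here). Of the 17, 10 were higher by GDF15 (median 0.03) and 13 by TGF-β (median 0.07). *Myc* was lower with both, but within 1 local spread of the local median. With the length trend removed its change by TGF-β was -0.03. *Ldha*, for lactate dehydrogenase A, was at 183, 224 and 271 FPKM. Its changes were 0.29 and 0.56, or 0.40 and 0.68 with the length trend removed. *Fbl*, for the nucleolar protein fibrillarin, was at 21.1, 17.1 and 24.0, and *Srm*, for spermidine synthase, at 31.8, 32.4 and 37.3. The change of *Fbl* by GDF15 was -0.28, or -0.07 with the length trend removed.

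Of 13 regulators of the TGF-β cytostatic response, 12 were expressed, 6 of them higher and 6 lower by each stimulus. *Id3*, which encodes an inhibitor of differentiation, was at 17.7 FPKM without stimulation, 9.78 with GDF15 and 11.1 with TGF-β, with changes of -0.80 and -0.63. *Foxo1*, for a factor that can raise *Cdkn1a* and *Cdkn1b*, was at 4.63, 7.04 and 6.95 FPKM. Its changes were 0.51 and 0.50, the former 0.35 with the length trend removed. *Cebpb*, for a factor tied to *Cdkn2b* and *Myc* control, was at 26.2, 20.0 and 18.1, with changes of -0.37 and -0.50, the former -0.23 with the length trend removed. The 18 S and M phase genes, whose RNA levels are not a measure of cell division, were divided by GDF15 (9 higher and 9 lower, median 0.00), whereas by TGF-β 15 of 18 were lower (median -0.27), against 62.8% of all expressed rows. Split after the values were seen, the 9 genes of replication and nucleotide synthesis (*Mcm2* to *Mcm7*, *Pcna*, *Rrm2* and *Tyms*) had TGF-β changes of -0.22 to 0.08, with 3 higher and 6 lower. The other 9, of G2 and mitosis, were all lower with TGF-β, at -0.85 to -0.32, so the pooled median falls between the groups. With GDF15 the replication genes were 5 higher and 4 lower (median 0.02) and those of G2 and mitosis 4 higher and 5 lower (median -0.12, from -0.32 to 0.23). *Plk1*, a mitotic kinase gene, was at 11.0, 8.64 and 5.66 FPKM, and *Cdc20*, for an activator of the anaphase promoting complex, at 32.8, 28.2 and 19.2. By GDF15 *Cdc20* changed by -0.21, or -0.09 with the length trend removed. *Top2a*, for topoisomerase II, was at 34.8, 41.0 and 26.4. *Cdkn3*, which encodes a phosphatase of CDKs rather than a stoichiometric inhibitor, was at 11.2, 7.08 and 6.69 FPKM, with changes of -0.59 and -0.66.

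**Figure D5:**
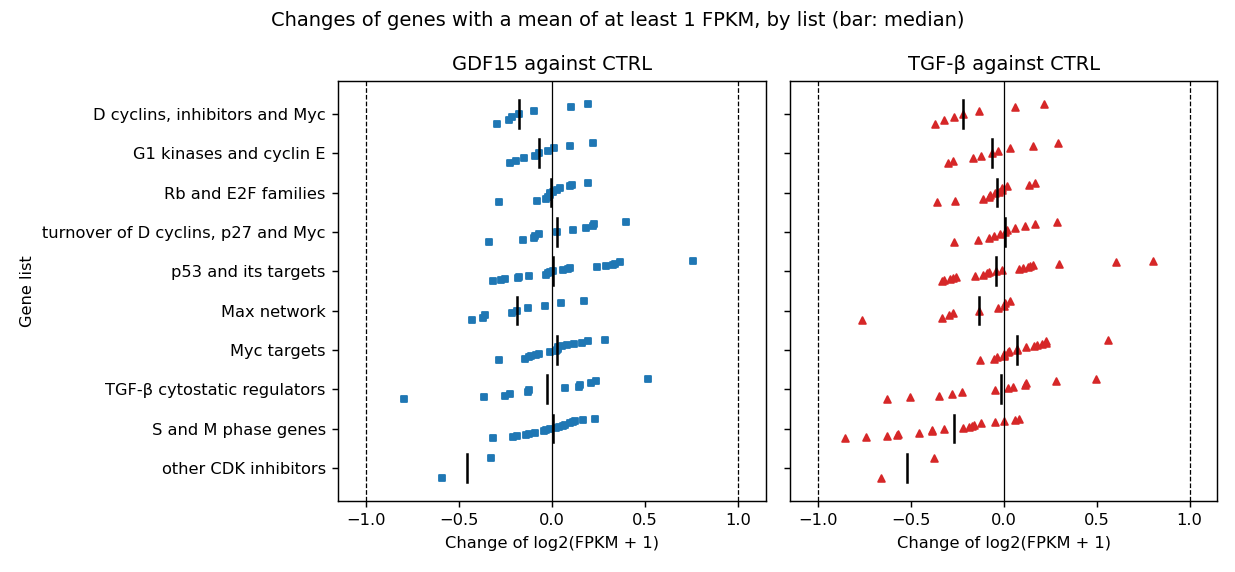
Change of log2(FPKM + 1) by GDF15 (left) and TGF-β (right) for genes with a mean of at least 1 FPKM, 1 point per gene, by list, with a vertical bar at each median and dashed lines at 2-fold. No point passes 2-fold; the median of the S and M phase genes is 0.00 by GDF15 and -0.27 by TGF-β, and that of the D cyclins, inhibitors and *Myc* is -0.18 and -0.22.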

How the data were processed

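NIH3T3 fibroblasts were left unstimulated or given GDF15 or TGF-β, RNA was pooled within each treatment, and 1 stranded mRNA library per treatment was sequenced. The authors calculated FPKM with Cufflinks and restricted the table to UniProt-reviewed genes that code for proteins, and these deposited FPKM were used as they are. The submitters' processing notes name TopHat 1.3.2, Bowtie 0.12.9, Cufflinks 2.0.2 and mm10. The gene annotation and strand setting are not given in the sources used here. Columns were matched to samples by the treatment in their names.

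Changes were computed as log2(FPKM + 1) differences, which understate the change of low genes, with over 2-fold meaning an absolute change over 1. The local spread was taken as the median absolute deviation of 500 neighbours, multiplied by 1.4826. Coordinates and lengths are from GENCODE M21 (GRCm38), with 15472 of 15554 rows matched to a length, and promoters from RefSeq. Depth is the reciprocal of the lowest cluster of FPKM times length among rows with 1 coding transcript. *Ccnd1*, *Ccnd2*, *Cdkn1c* and *Myc* had no matched promoter entry. The genes named from the other lists are the 2 expressed members with the widest change by each stimulus and the binding partners. Also named were rows of at least 1 FPKM within 3 Mb of *Cdkn2a*. *Gdf15*, *E2f6*, *Mycn*, *Mycl*, *Mdm2*, *Ccnb1*, *Cdk1*, *Aurka*, the genes that share exon bases, single marker and ribosomal protein genes, and neighbours below 1 FPKM were named after their values were seen. Members and lists were chosen with earlier results of these data known. Functions were tested on simulated data. Alternatives were pseudocounts of 0.5, 0.1 and 0, a minimum mean FPKM of 1, upper quartile scaling, and removal of trends with expression or length. Python 3.11.15, numpy 2.4.6, pandas 2.3.3 and matplotlib 3.10.9 were used.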

Additional observations from a re-analysis of the deposited data

How the results depend on the processing

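No paired analysis was possible because only 1 library was made per treatment, which also prevents leaving any of them out. Under each of the 7 alternatives, 0 of the members that entered it were over 2-fold by either stimulus. These were 10 or, where low genes were left out, 7. The median change of the measured members stayed between -0.19 and -0.01 by GDF15 and between -0.22 and -0.03 by TGF-β, the number of members entering it being 10 or, where low genes were left out, 7. Of 122 values of single members, 120 moved by less than the local spread, 0 changed sign, and 2 moved by more, both of *Cdkn2a* by GDF15 with smaller pseudocounts, where the level is under 3 fragments and no change is given. Removal of the length trend gave 0.08 for *Ccnd2* by GDF15 and -0.03 for *Myc* by TGF-β. For 30 other named genes, run under the same alternatives after the data were seen, 11 of 420 values changed sign, in *Cdk6*, *Max*, *Mdm2*, *Mtap* and *Tfdp2* by GDF15 and *Cdk2* by TGF-β. Scaling to the upper quartile shifted all high genes by 0.06 for GDF15 and 0.07 for TGF-β. Depth limits what can be said of the 3 genes at or near 0, and the lack of replicates limits all 10.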

Other observations

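Beyond 2 local spreads from the local median lay 0 of the 7 expressed D cyclin, inhibitor and *Myc* genes by either stimulus. Of 109 expressed genes of the other lists, 5 lay beyond this distance by GDF15 (4.59%, against 6.75% of all expressed rows) and 12 by TGF-β (11.0%, against 9.76%). Those by GDF15 were *Plk2*, *Mxd3*, *Foxo1*, *Id3* and *Cdkn3*, and all 5 were also among the 12 by TGF-β, a comparison that shares the CTRL library. The other 7 by TGF-β were *Gadd45a*, *Ldha* and the mitotic genes *Ccnb1*, *Cdk1*, *Aurka*, *Plk1* and *Cdc20*. *Ccnb1*, for cyclin B1, was at 13.2 FPKM without stimulation, 13.6 with GDF15 and 8.62 with TGF-β, and *Cdk1*, its kinase, at 19.3, 16.8 and 12.6. *Aurka*, for Aurora kinase A, was at 14.5, 13.1 and 9.05 FPKM. These shares are near those of all expressed rows.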
